A study of Mus musculus with 4 samples.

Results

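miR-126a, the miR-199 family and the neighbouring pair miR-221 and miR-222 are microRNAs (miRNAs) known from platelets and the vessel lining, and were followed here in mouse whole blood by their locus names. The names mmu-mir-126a, mmu-mir-199a-1, mmu-mir-199a-2, mmu-mir-199b, mmu-mir-221 and mmu-mir-222 gave 6 of the 374 annotated loci listed in any library. All 6 were listed in all 4 libraries. The 3 miR-199 loci carry 1 identical counted sequence and the same read count in each library, so the 6 loci hold 4 distinct sequences, and each is given once.

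Cadmium libraries came from whole blood of Balb/c mice, an inbred albino strain, aged 180 days and given cadmium in the drinking water (2 libraries). Control libraries came from whole blood of Balb/c mice of the same age labelled control (2 libraries). Cadmium is a toxic metal that accumulates in liver and kidney, and the comparison asks which blood miRNAs differ after exposure to it; the sources used here give neither dose nor duration. Whether libraries of 1 group were made from different animals is not stated, and p-values therefore reflect only how far these libraries differ, which may be technical.

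An miRNA is cut from one or the other arm of a hairpin transcript, and bases 2 to 8 of the mature strand, the seed, pair with target mRNAs. In mammals miR-126 is made from within Egfl7, the gene of a protein secreted by endothelial cells; it is known for endothelial growth-factor signalling and vessel integrity, and it is also found in platelets. miR-199 hairpins lie antisense to dynamin genes and are known from mesenchymal cells and, in humans, from platelets. miR-221 and miR-222 are made from neighbouring hairpins, share a seed, and are known in humans to repress the receptor KIT in endothelial and red cell precursors. Blood was not sorted, so the tables cannot say which cells or vesicles the reads came from, and fewer cells of a type and less RNA per cell cannot be told apart.

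The 4 counted sequences are shown because they fix which strand of each hairpin was measured; capitals mark the seed, and letters are as deposited (T for U).
mmu-mir-126a: cATTATTActtttggtacgcg
mmu-mir-199a-1, mmu-mir-199a-2 and mmu-mir-199b: aCAGTAGTctgcacattggt
mmu-mir-221: aGCTACATtgtctgctgggtt
mmu-mir-222: aGCTACATctggctactggg
The miR-221 and miR-222 sequences share the seed GCTACAT and are identical over their first 8 bases. None of the other annotated loci with a usable sequence (365 in all, members included) had the seed of miR-126a, of miR-199 or of miR-221. The listed windows of miR-199 (20 bases), miR-221 (21 bases) and miR-222 (20 bases) begin at the first base of the RefSeq 3′-arm forms and stop 2, 2 and 3 bases short of their ends.

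For miR-126a the counted strand came from the 5′ arm, and the strand whose seed is usually meant by miR-126 lies on the 3′ arm. The RefSeq hairpins (GRCm38.p6, the mm10 assembly) of miR-126a and of the 3 miR-199 loci are given with the counted bases in capitals, to show the arm and the shared stretch.
Mir126a, chr2:26591357-26591429, plus strand: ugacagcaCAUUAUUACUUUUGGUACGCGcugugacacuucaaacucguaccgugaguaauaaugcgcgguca
Mir199a-1, chr9:21496495-21496564, minus strand: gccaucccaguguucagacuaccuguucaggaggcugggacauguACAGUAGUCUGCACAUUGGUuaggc
Mir199a-2, chr1:162217814-162217923, plus strand: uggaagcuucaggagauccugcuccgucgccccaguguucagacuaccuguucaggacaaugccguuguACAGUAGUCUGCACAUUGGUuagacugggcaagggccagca
Mir199b, chr2:32318460-32318569, plus strand: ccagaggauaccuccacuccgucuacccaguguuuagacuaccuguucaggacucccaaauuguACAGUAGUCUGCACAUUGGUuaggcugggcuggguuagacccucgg
The RefSeq 3′-arm form, miR-126a-3p, reads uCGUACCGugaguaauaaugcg, with another seed. The tables list 1 window per member, so the 3′ arm of miR-126a is not analysed here, and every miR-126a value below is of the 5′ arm. On the 5′ arm only the Mir199b hairpin can be told apart, since Mir199a-1 and Mir199a-2 share the miR-199a-5p sequence. miR-199a-5p and the same 23-base stretch of the Mir199b hairpin differ by 1 substitution, C10U. The base of miR-199a-5p is given first, and positions are counted from 1 at its 5′ end. The counted 3′ arm separates none of the 3 loci, so the miR-199 value is the sum over whichever of them were transcribed.

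On the plus strand of chromosome 2, the counted window of miR-126a (26591365 to 26591385, mm10) is part of an exon of 1 of the 9 GENCODE transcripts of Egfl7 that span it and in an intron of the rest. The hairpin of Mir126b lies on the opposite strand of the same stretch, and mmu-mir-126b was listed in 0 of the 4 libraries. The 199a-1 window (chromosome 9, 21496500 to 21496519, minus strand) and the 199b window (chromosome 2, 32318524 to 32318543, plus strand) lie opposite to introns of Dnm2 and Dnm1, genes of dynamins, which pinch off membrane vesicles. For 199a-2 the window (chromosome 1, 162217883 to 162217902, plus strand) falls within an exon of the noncoding gene Dnm3os, opposite to an intron of Dnm3. Its neighbour in Dnm3os, mmu-mir-214, was listed in 0 libraries; a missing locus is not a measured 0, since the lowest count in any list is 5. The miR-221 window (chromosome X, 19146309 to 19146329) and the miR-222 window (chromosome X, 19146904 to 19146923) are on the minus strand, in their own miRNA genes only, and 504 bases separate the hairpins. All 6 windows had the same start and end in all 4 libraries.

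With cadmium, 0 of the 4 sequences passed the test over all loci, against a background of 14.5% of the 276 loci tested (edgeR quasi-likelihood test, Benjamini-Hochberg adjusted p under 0.05). At an unadjusted p under 0.05 there was 1, miR-222, against 28.6% of all loci, and DESeq2 also called 0 of 4, against 18.5%. With cadmium miR-222 stood at 1.37 times and miR-221 at 1.16 times the control level, while miR-126a-5p and miR-199-3p were each 1.11-fold lower than in controls. Levels are in CPM, read counts scaled to a common library size, with the TMM method, which sets libraries on 1 scale by the bulk of their loci. The counted strands have nearly the same length, so CPM needs no length correction between members; how evenly different sequences were captured in the libraries was not tested, and orders of members below are orders of reads.

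**Figure D1:**
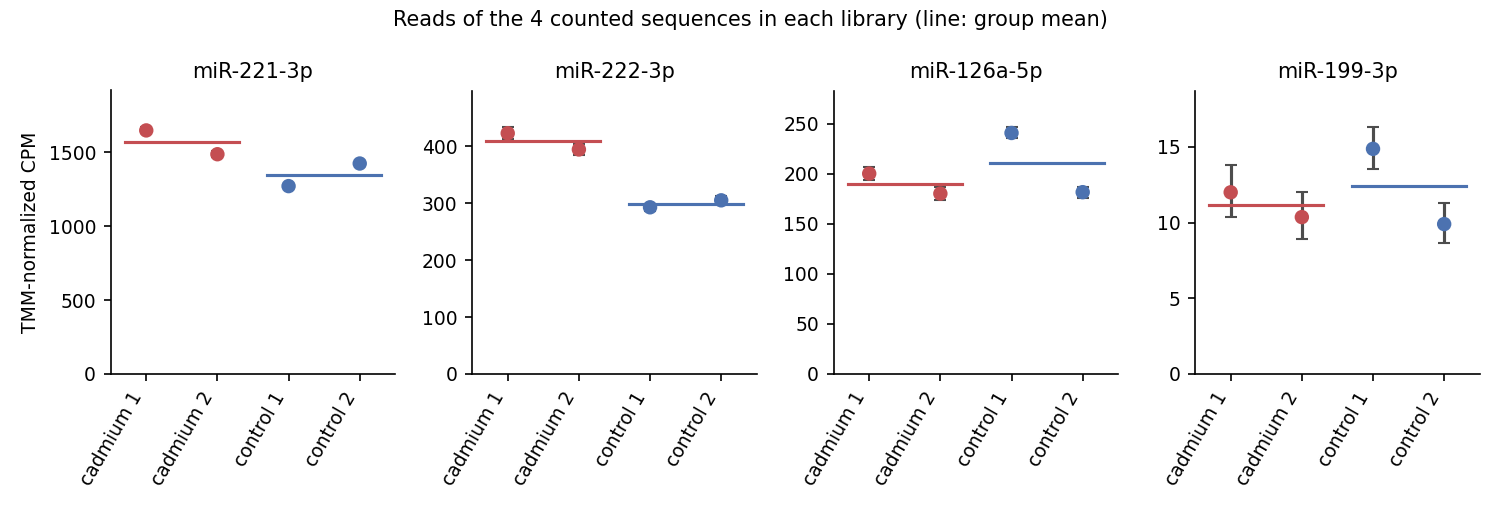
TMM-normalized CPM (vertical axis, from 0) of the 4 counted sequences in the 2 cadmium libraries (red) and the 2 control libraries (blue). Bars are 95% Poisson intervals of the reads, which cover counting error only, and lines are group means; miR-222-3p separates the groups most clearly, at 395 to 423 CPM with cadmium and 293 to 305 CPM in controls, while miR-126a-5p and miR-199-3p overlap.

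miR-221 was the most abundant member. It had 26666 and 25277 reads, or 1648 and 1487 CPM, in cadmium libraries 1 and 2, and 39955 and 31953 reads, or 1271 and 1424 CPM, in control libraries 1 and 2. Both cadmium libraries lay above both controls on this scale, with a small gap between the lower cadmium and the higher control library; 69.9% of all loci had groups that did not overlap. Group means were 1568 ± 114 CPM with cadmium and 1348 ± 108 CPM in controls (SD, n = 2 each), a log2 fold change of 0.22 ± 0.14 (SE; 95% interval -0.11 to 0.55; edgeR adjusted p = 0.353). With DESeq2 size factors the groups overlapped, at 1581 and 1455 CPM with cadmium and 1317 and 1465 CPM in controls.

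miR-222 differed most between the groups among the 4 members. It had 6845 and 6707 reads, or 423 and 395 CPM, in cadmium libraries 1 and 2, and 9207 and 6847 reads, or 293 and 305 CPM, in control libraries 1 and 2. The groups did not overlap under any of the 4 scalings tried, nor did those of 69.9% of loci with TMM, 64.1% with DESeq2 size factors, 64.9% with library totals alone and 63.8% with the upper quartile. Means were 409 ± 20.1 CPM with cadmium and 299 ± 8.66 CPM in controls (SD, n = 2 each), and the log2 fold change of 0.45 ± 0.16 had a 95% interval of 0.08 to 0.82 and missed the threshold (edgeR adjusted p = 0.0949). Among all tested loci, 60.5% had a log2 fold change of smaller size. It passed the threshold with library totals alone (0.75, edgeR adjusted p = 0.0194) and with upper quartile scaling (0.69, edgeR adjusted p = 0.0100), where 23.6% and 20.7% of all loci passed.

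miR-126a-5p had 3237 and 3061 reads, or 200.1 and 180.1 CPM, in cadmium libraries 1 and 2, and 7562 and 4072 reads, or 241 and 182 CPM, in control libraries 1 and 2. Control 1 was the highest of the 4, and the other 3 libraries lay close together, so the groups overlapped. Group means were 190.1 ± 14.1 CPM with cadmium and 211 ± 41.8 CPM in controls (SD, n = 2 each). The log2 fold change was -0.15 ± 0.20, with a 95% interval of -0.63 to 0.33 (edgeR adjusted p = 0.622), so the data bound the difference but do not show that the levels were alike.

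miR-199-3p was the scarcest, on 176 reads in the library with the fewest and 467 in the one with the most. It had 11.99 and 10.4 CPM in cadmium libraries 1 and 2, and 14.9 and 9.90 CPM in control libraries 1 and 2. Here too control 1 was the highest and the 2 cadmium libraries lay between the controls. Means were 11.2 ± 1.16 CPM with cadmium and 12.4 ± 3.51 CPM in controls (SD, n = 2 each), with a log2 fold change of -0.15 ± 0.27 (95% interval -0.78 to 0.48; edgeR adjusted p = 0.704). The counting interval of cadmium 1 was 10.4 to 13.8 CPM. It overlapped those of cadmium 2 (8.88 to 12.004 CPM) and control 2 (8.64 to 11.3 CPM). Overlap of intervals is not a test, and differences between single libraries were not tested.

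**Figure D2:**
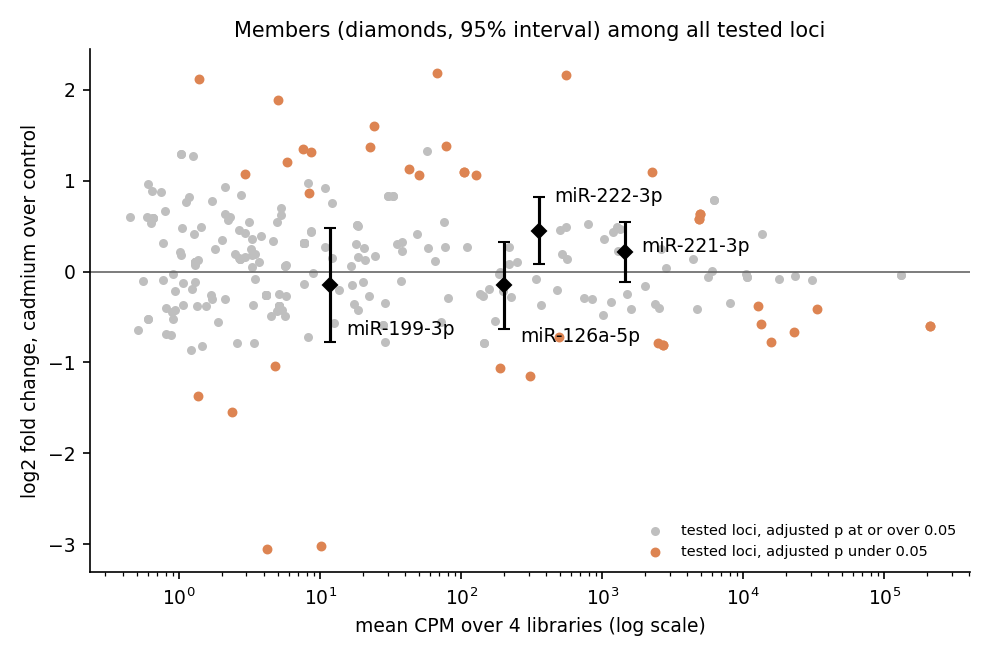
Mean CPM over the 4 libraries (horizontal axis, log scale) against the log2 fold change of cadmium over control for the 276 tested loci, with loci at an edgeR adjusted p under 0.05 in orange. The members are black diamonds with 95% intervals; miR-126a-5p, miR-199-3p and miR-221-3p have intervals that take in 0, and miR-222-3p lies above 0 without passing the adjusted threshold.

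The order of the members was the same in all 4 libraries: miR-221 first, then miR-222, miR-126a-5p and miR-199-3p. Among 211 distinct sequences ranked by CPM, miR-221 ranked 29 and 30 in the cadmium libraries and 31 in both controls. miR-222 ranked 48 in both cadmium libraries and 52 and 51 in controls 1 and 2, and miR-126a-5p ranked 56 and 58 with cadmium and 55 and 60 in controls 1 and 2. miR-199-3p ranked 110 and 112 with cadmium and 101 and 109 in controls 1 and 2. Together the 4 sequences held 0.417% and 0.369% of the reads of these 211 sequences in the cadmium libraries and 0.268% and 0.285% in the controls, with each sequence counted once. On the same base miR-221 alone held 0.301% and 0.265% with cadmium and 0.187% and 0.211% in controls (95% Wilson interval of the share in cadmium 1, 0.297% to 0.304%, for counting error alone).

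These shares depend on the reads of the other tested sequences, the most abundant included. The red cell list summed to 333231 and 346991 CPM in the cadmium libraries and 443785 and 426818 CPM in the controls. Of its 2 most abundant members, miR-486 fell, at 161361 and 173095 CPM with cadmium and 261145 and 245108 CPM in controls 1 and 2 (log2 fold change -0.60 ± 0.07, edgeR adjusted p = 0.00204). miR-16 had 127860 and 130779 CPM with cadmium and 131483 and 134150 CPM in controls 1 and 2 (-0.04 ± 0.07, edgeR adjusted p = 0.704). The part of this list in the members' values was not tested. Scaling set the level of every member at once: the median log2 fold change of all loci was 0.08 with TMM, -0.01 with DESeq2 size factors, 0.38 with library totals alone and 0.32 with the upper quartile. miR-126a-5p and miR-199-3p turned positive with library totals alone (both 0.15) and with the upper quartile (0.10 and 0.11), without passing the threshold, and miR-221 passed it with library totals alone (0.52, edgeR adjusted p = 0.0455). Set against the median of all loci, each member hardly moved between scalings. A change of scaling shifts all loci nearly alike, so this was fixed in advance and is no sign of stability. For miR-126a-5p and for miR-199-3p the difference from that median was -0.23 with TMM, DESeq2 size factors and library totals, and -0.22 with the upper quartile. For miR-222 it was 0.37 under the first 3 scalings and 0.36 with the upper quartile, and for miR-221 it was 0.14 under the first 3 and 0.12 with the upper quartile. The difference did move with TMM when a control was left out. For miR-126a-5p it was -0.02 without control 1 and -0.44 without control 2, and for miR-199-3p 0.09 and -0.51.

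Read ratios within a library do not depend on scaling between libraries. miR-126a-5p outnumbered miR-199-3p 16.7-fold and 17.4-fold in cadmium libraries 1 and 2 and 16.2-fold and 18.3-fold in controls 1 and 2, so the cadmium values lay between the controls. The mean log2 ratio was 4.09 ± 0.04 with cadmium and 4.11 ± 0.13 in controls (SD, n = 2 each), a difference of -0.02 (exact two-sided permutation test, p = 1, where 2 against 2 cannot go below 0.33).

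miR-221 outnumbered its neighbour miR-222 3.90-fold and 3.77-fold in cadmium libraries 1 and 2, and 4.34-fold and 4.67-fold in controls 1 and 2. The groups did not overlap, with a log2 difference of -0.23 (-0.28 to -0.18 with 1 library left out) and the smallest p the exact two-sided permutation test allows, p = 0.33. The ratio of miR-222 to miR-126a-5p was 2.11 and 2.19 in cadmium libraries 1 and 2, and 1.22 and 1.68 in controls 1 and 2. The difference of 0.59 on the log2 scale (exact p = 0.33, permutation over the 4 libraries) was 0.36 without control 1 and 0.82 without control 2, so the distance between the controls moves it. For miR-221 over miR-126a-5p the ratios were 8.24 and 8.26 with cadmium and 5.28 and 7.85 in controls 1 and 2, a difference of 0.36 that shrank to 0.07 without control 1. These last 3 ratios were chosen after the values were seen; with the planned one 4 ratios were compared, and none could pass a threshold of 0.05 in this design.

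**Figure D3:**
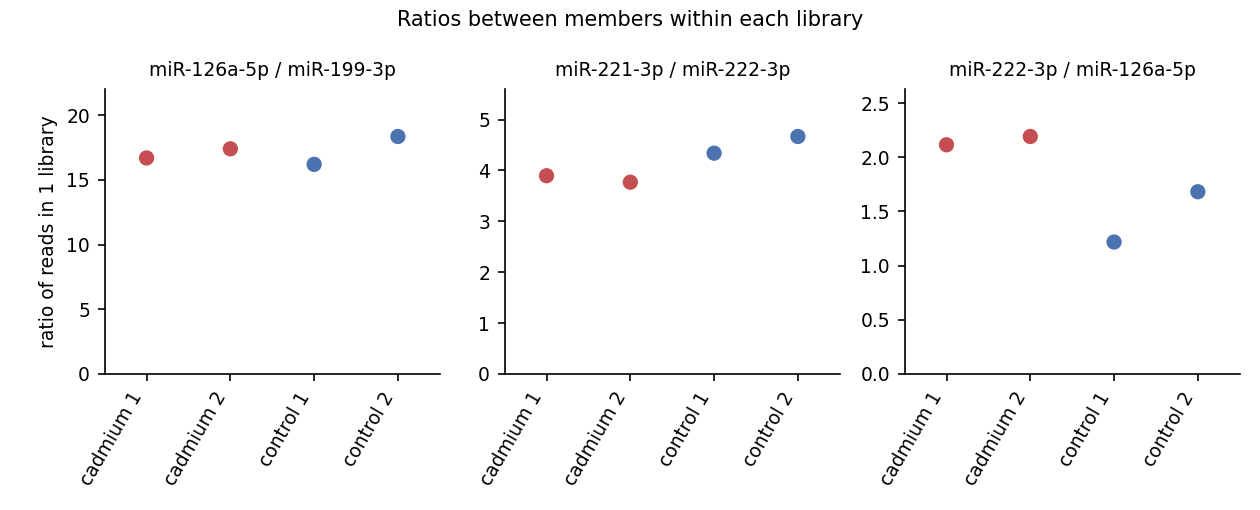
Ratio of reads within each library (vertical axes, from 0) for 3 pairs of members, cadmium libraries in red and control libraries in blue. The ratio of miR-126a-5p to miR-199-3p stays between 16.2 and 18.3 in all 4 libraries, while the ratio of miR-221-3p to miR-222-3p is lower, and that of miR-222-3p to miR-126a-5p higher, in both cadmium libraries than in both controls.

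The controls lay further apart than the cadmium libraries for miR-126a-5p and miR-199-3p. Control 1 stood 1.33-fold above control 2 for miR-126a-5p and 1.5-fold above it for miR-199-3p, while cadmium 1 stood 1.11-fold and 1.16-fold above cadmium 2. For miR-126a-5p the counting intervals of the controls were 235 to 246 and 176 to 187 CPM, so the gap exceeds counting error. A wider control pair was general: the median absolute log2 difference within a pair, over all tested loci, was 0.17 for the cadmium pair and 0.27 for the control pair. In the control pair 37.7% of loci differed more than miR-126a-5p and 24.6% more than miR-199-3p, against 89.1% for miR-222 and 67.4% for miR-221.

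With TMM, the sign for miR-126a-5p depended on which control library was left out. Its log2 fold change was 0.07 without control 1 (edgeR adjusted p = 0.637) and -0.34 without control 2, where it passed the threshold (edgeR adjusted p = 0.00364). miR-199-3p turned in the same way, to 0.17 without control 1 and -0.41 without control 2, and passed in neither case. miR-221 kept its sign and passed without control 2 (0.30, edgeR adjusted p = 0.000582), while miR-222 passed without control 1 (0.42, edgeR adjusted p = 7.73e-05) and without control 2 (0.48, edgeR adjusted p = 4.10e-06). The remaining control is assumed in these fits to vary like the closer cadmium pair, and 38.2% and 44.5% of all loci passed without control 1 and control 2, so these calls stand against a high background.

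**Figure D4:**
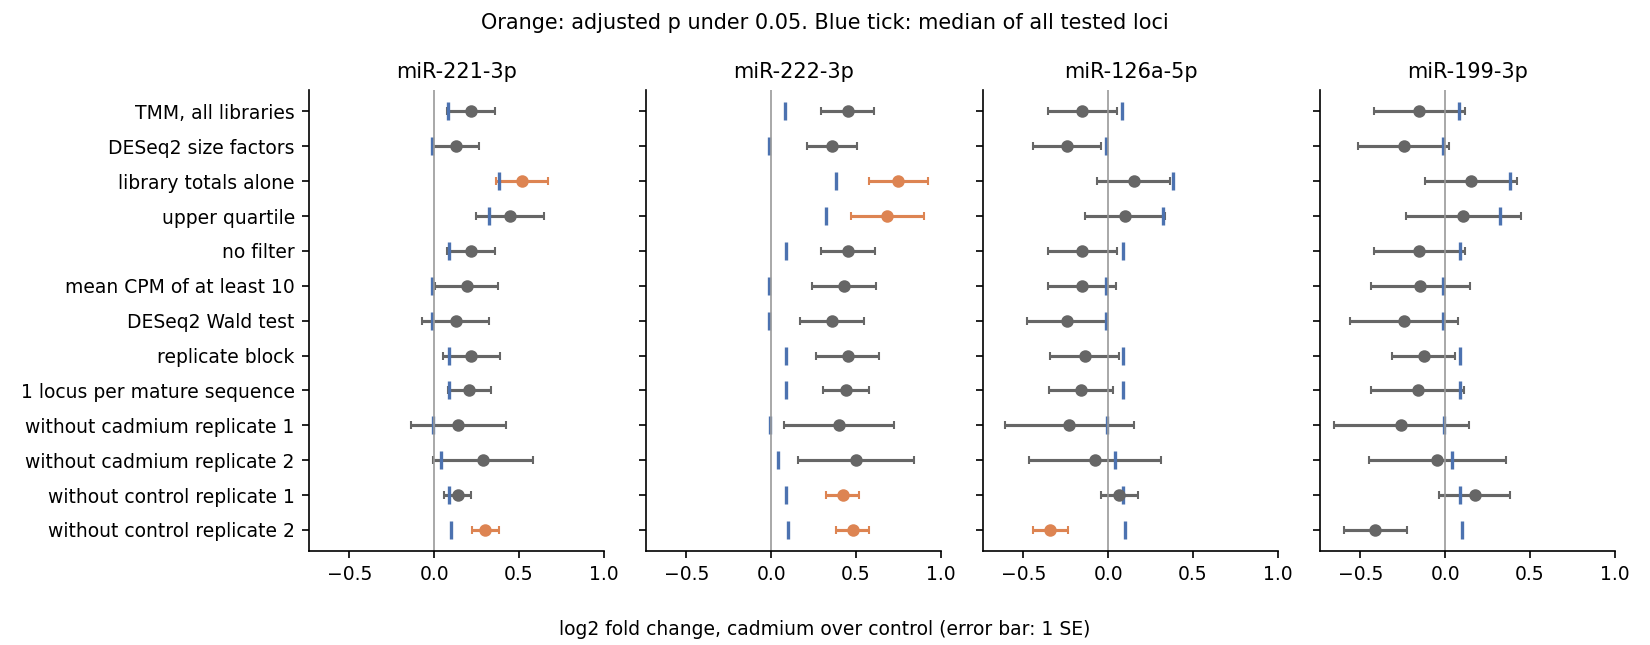
Log2 fold change of cadmium over control with 1 SE (horizontal axis) for each member under TMM scaling and 12 alternatives (vertical axis). Orange points have an adjusted p under 0.05 and blue ticks are the median of all tested loci; miR-221-3p and miR-222-3p stay above 0 throughout, and miR-126a-5p and miR-199-3p lie on both sides of 0.

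miR-126a-5p and miR-199-3p followed each other closely over the 4 libraries. Likeness was measured as the root mean square difference of log2 CPM after each sequence was centred on its own mean, over 4 libraries and 110 other sequences of at least 10 mean CPM. The nearest to miR-126a-5p were miR-192 (0.05), miR-92a at mir-92a-1 (0.06) and miR-199-3p (0.07), against a median of 0.29 over all 110. For miR-199-3p the nearest were miR-126a-5p (0.07), miR-92a (0.09) and miR-192 (0.10). miR-221 and miR-222 ranked 51 and 68 in likeness to miR-126a-5p. The shared feature of the 4 near sequences was a high control 1: miR-192, known from liver and gut, had 1420 and 1302 CPM with cadmium and 1819 and 1405 CPM in controls 1 and 2. Likewise miR-92a, of the miR-17-92 cluster, had 23463 and 22245 CPM with cadmium and 27139 and 20322 CPM in controls 1 and 2. With 4 libraries that share depth and scaling, this is a description of these libraries only.

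**Figure D5:**
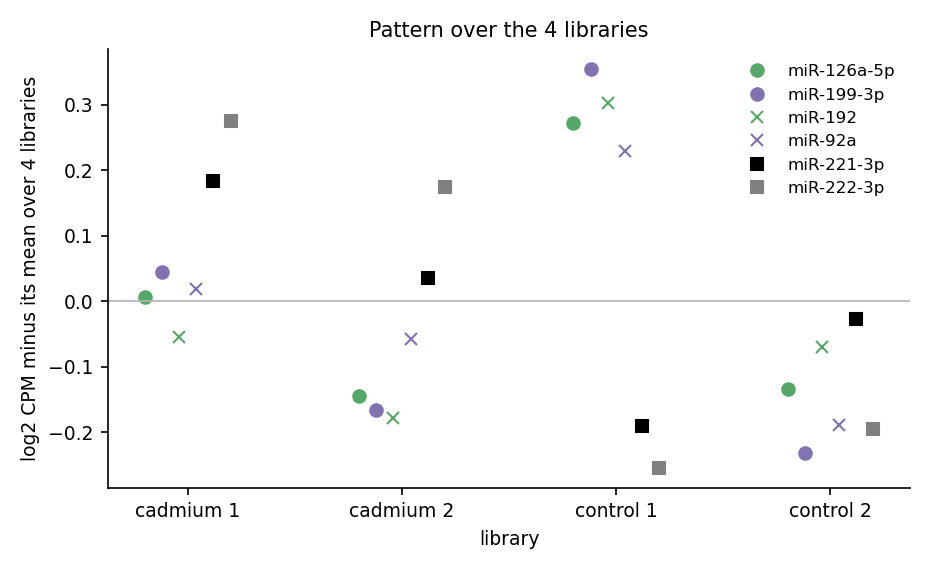
Log2 CPM minus its own mean over the 4 libraries (vertical axis) for the 4 members and for miR-192 and miR-92a, by library (horizontal axis). miR-126a-5p, miR-199-3p, miR-192 and miR-92a share a maximum in control 1, whereas miR-221-3p and miR-222-3p are highest in cadmium 1 and lowest in control 1.

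The members were set beside other miRNAs abundant in platelets. Of 20 loci on that list, members included, 19 were tested and hold 14 sequences, of which 2 rose and 1 fell, where 14.5% of all loci were called in either direction; 7 had a positive log2 fold change, and the median was -0.01 beside 0.08 for all loci. The most abundant was miR-191, which fell with cadmium, at 11076 ± 177 CPM against 14449 ± 282 CPM in controls (SD, n = 2 each; log2 fold change -0.38 ± 0.09, edgeR adjusted p = 0.0323). miR-26a, the next, had a log2 fold change of -0.06 ± 0.12. The 2 that rose, named after their values were seen, were miR-24 (1.10 ± 0.20) and miR-103 (0.63 ± 0.13). Summed over the 14 sequences, the list had 47028 and 47301 CPM in the cadmium libraries and 48800 and 48191 CPM in the controls, so the cadmium mean stood at 0.973 of the control mean. Several of these miRNAs are also abundant in white cells, so the sum is not a measure of platelets. The lists count sequences, whereas the 14.5% is a share of loci, in which copies of 1 sequence count more than once. The loci tested held 211 distinct sequences, and with 1 locus per mature sequence 29 were called.

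A list of miRNAs of endothelium and vessel wall, which also holds miR-126a, miR-221 and miR-222, had 12 of 15 loci tested, with 11 sequences. Of these 0 rose and 2 fell at an edgeR adjusted p under 0.05, beside the same 14.5% of all loci, and the median log2 fold change was 0.24 beside 0.08 for all loci. The most abundant was miR-10a, from a Hox gene cluster, at 2835 ± 58.5 CPM with cadmium and 2393 ± 191 CPM in controls (SD, n = 2 each; log2 fold change 0.24 ± 0.13, edgeR adjusted p = 0.256), followed by miR-221. The 2 that fell, named after their values were seen, were miR-10b (-0.72 ± 0.16) and miR-31 (-1.06 ± 0.23). Lists of blood cells gave a median of -0.04 for 7 red cell sequences (1 rose, 2 fell), -0.52 for 6 lymphocyte sequences (0 rose, 1 fell) and 0.59 for 4 myeloid and general leukocyte sequences (1 rose, 0 fell). With so few sequences a list, these call counts are set beside the 14.5% of all loci as a description only. The sequence that rose on the myeloid and general leukocyte list was miR-24, which the platelet list counts too. The lymphocyte list summed to 4340 and 4241 CPM with cadmium and to 7168 and 5849 CPM in controls 1 and 2. Its most abundant members were miR-181a, which fell (1974 ± 1.48 CPM with cadmium and 3461 ± 732 CPM in controls; log2 fold change -0.81 ± 0.16, edgeR adjusted p = 0.0133), and miR-181c (-0.36 ± 0.13, edgeR adjusted p = 0.0920). The myeloid and general leukocyte list, led by miR-142 (log2 fold change -0.07 ± 0.12) and miR-27a (0.09 ± 0.20), neither of them called, summed to 6331 and 5534 CPM with cadmium and to 6297 and 5796 CPM in controls 1 and 2. The part of these cell types in the members' values was not tested.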

How the data were processed

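Small RNA of whole blood was sequenced on an Illumina HiSeq instrument after total RNA isolation with the miRNeasy kit, per the labels' protocols and design text. The authors deposited 1 list per library with the count of mature reads per locus, as whole numbers and not normalized. The submitters' processing notes name Bowtie 0.12.2, DESeq and the mm10 build; for each tool's role, the locus caller and the miRNA release, the sources used here give nothing.

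The lists held 637, 583, 954 and 693 named rows in cadmium 1, cadmium 2, control 1 and control 2. Annotated loci summed to 14383852, 15565712, 35244119 and 24622926 reads, so controls are the deeper libraries. A row of cadmium 1 with no name, which held the column total, was left out. Star names that repeated a locus were merged. The sequence column of control 2 was out of step with its rows, so sequences come from the other 3 libraries. All 4 libraries listed 289 of the 374 annotated loci, 277 of them on 1 arm, and 276 passed filterByExpr. Of the 277, 236 had the same counted window in all 4 libraries. The background of all loci therefore holds some whose windows differed between libraries. Counts within each library pair differed by more than counting error (chi-square per degree of freedom 60.8 for the cadmium pair and 1023 for the control pair). The loci compared include copies of 1 sequence and some whose windows differed. The values therefore do not settle whether a pair came from 1 library.

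The test was edgeR 4.0.16 (limma 3.58.1, R 4.3.3) with TMM, quasi-likelihood F test, group as the only term, two-sided, Benjamini-Hochberg over all loci. SE is the log2 fold change over the square root of F. For 20 cadmium against control data sets of 276 loci, counts were simulated with known changes. The share called was 19.8% for a simulated 1.5-fold change, 62.5% for 2-fold, 97.8% for 4-fold and 0.532% for no change. The simulated spread followed the trend over loci and was the same in each group, whereas the real control pair was the wider. These shares may therefore not hold for the real libraries. Intervals are 95%, Poisson or Wilson, and cover counting error only. Alternatives were other scalings, filters, DESeq2 1.42.0, a replicate block, 1 locus per sequence and each library left out. The members, the 5 miRNA lists and the tests were chosen with earlier results of these data known. Named by rule are all members, mir-126b and mir-214, the 3 sequences nearest in pattern to miR-126a and miR-199, and the 2 most abundant of each list. Outside these rules, miR-24, miR-103, miR-10b, miR-31, miR-143 and miR-145a were named after their values were seen. miRNA sequences are from the deposited lists and RefSeq (GRCm38.p6; 6 of 6 hairpins matched), and gene positions from GENCODE M21 (mm10). Tables and plots were made with pandas 2.3.3 and matplotlib 3.10.9 (Python 3.11.15), and exact tests and intervals with SciPy 1.17.1.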

Additional observations from a re-analysis of the deposited data

How the results depend on the processing

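The test over all loci called 40 (22 higher, 18 lower with cadmium). It called 65 with library totals alone (57 higher, 8 lower), 26 at a mean CPM of at least 10, and 8 to 122 with 1 library left out, and the split of higher against lower was 48 to 9 with the upper quartile, and 21 to 27 after DESeq2 size factors. The sign of miR-126a turned with library totals alone (0.15) and the upper quartile (0.10), and that of miR-199 with the same settings (0.15 and 0.11). With 1 library left out, miR-126a ran from -0.34 to 0.067, miR-199 from -0.41 to 0.17, miR-221 from 0.14 to 0.30 and miR-222 from 0.40 to 0.50. miR-221 became a call with library totals alone (0.52), and miR-222 with library totals alone (0.75) and the upper quartile (0.69). The median of all loci rose with these 2 scalings as well, from 0.08 with TMM to 0.38 with library totals alone and 0.32 with the upper quartile. Why values moved with 1 library left out was not tested. The cadmium minus control difference in the log2 ratio of miR-126a to miR-199 ran from -0.11 to 0.07 with 1 library left out. DESeq2, both filters and 1 locus per sequence left all 4 sequences with the same sign and uncalled. With the replicate number as a block, 19 loci were called, and the members had -0.14 (miR-126a), -0.13 (miR-199), 0.22 (miR-221) and 0.45 (miR-222), none called; same-numbered libraries did not deviate together (correlation 0.00), so the numbers are not taken as pairs. Depth limits miR-199, at 176 to 467 reads, more than the other members.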

Other observations

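The 5′ arm counted for miR-126a was common among these lists. For 194 loci listed on 1 arm, the listed window lay in a RefSeq hairpin matched by name. Of these, 112 were counted on the 5′ arm and 82 on the 3′ arm. Copies of 1 sequence count more than once here, and 83 loci without such a match were left out. miR-143 and miR-145a, known from smooth muscle of the vessel wall, were named after their values were seen. miR-143 had 82.9 and 61.7 CPM in cadmium libraries 1 and 2 and 115 and 62.3 CPM in controls 1 and 2 (log2 fold change -0.29 ± 0.32, edgeR adjusted p = 0.521). miR-145a had 9.46 and 12.4 CPM in cadmium libraries 1 and 2 and 6.87 and 4.19 CPM in controls 1 and 2 (log2 fold change 0.97 ± 0.30, edgeR adjusted p = 0.0703). It rests on 153 and 211 reads with cadmium and 216 and 94 reads in controls 1 and 2. The signs of miR-143 and miR-145a were opposite, neither was called, and the 2 called sequences of their list fell.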
